A study of Mus musculus with 7 samples.

Results

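Dimethyl sulfoxide (DMSO) was the vehicle control of a study of the immunoproteasome inhibitor ONX-0914, and the question here was how the hippocampal transcriptome of DMSO-treated mice differed from that of untreated mice. The comparison used the libraries labelled DMSO (replicates 2 and 3) and the libraries labelled untreated control (replicates 1 to 3), which are 5 of the 7 libraries of the series, and every gene row of their count files. Of 55416 gene identifiers, 12688 passed the filter on low counts and were tested. All mice were male, age-matched CD1 animals, an outbred stock in which individuals differ in genotype, and no age was given. The DMSO-treated mice received DMSO intraperitoneally, 2 injections per week for 2 months, in the volume used for the inhibitor. The control mice were not injected, so DMSO and the injections themselves cannot be told apart. The remaining 2 libraries came from mice given ONX-0914 at 10 mg/kg on the same schedule and stayed out of the model. The sources do not say which mice of each group were sequenced, or that each library is 1 mouse, so the p-values measure only the spread between these libraries, which may be technical.

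Libraries were made from total RNA with a directional kit. Counts on genes were 2913608, 3754590 and 3776096 in control 1, 2 and 3, and 3877006 and 2842675 in DMSO 2 and 3. The distance of a pair of libraries, computed from the 500 genes that differed most between them as the root mean square of their log2 differences, was 1.25 to 1.36 between controls, 1.32 between the DMSO libraries and 1.40 to 1.60 between the groups. The summed level of the 10 tested markers of hippocampal CA3 neurons was 1820.0 to 1935 counts per 1000000 counts of a library (CPM) over the 5 libraries. Markers of the dentate gyrus summed to 688 to 884 CPM, markers of striatum to 217 to 254 CPM and markers of thalamus and midbrain to 138 to 189 CPM. Markers of neocortex varied more, with control 3 the highest. They summed to 653, 645.5 and 941 CPM in control 1, 2 and 3 and to 819 and 670.4 CPM in DMSO 2 and 3. The ONX-0914 libraries, outside the model, stood apart from these 5. ONX-0914 1 summed to 1314 CPM for striatum and 1551 CPM for thalamus and midbrain, and ONX-0914 2 to 184.5 and 170.2 CPM. Their CA3 markers summed to 548 and 878 CPM. Their blood markers summed to 98.4 and 863 CPM, against 30.9 to 45.7 CPM in the 5. ONX-0914 2 had 13782270 counts on genes.

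Hippocampal neurons answer synaptic activity with a fast wave of immediate early genes, which encode transcription factors such as Fos, Jun, Egr and Nr4a proteins and synaptic proteins such as Arc and Homer1. Cells under protein folding stress switch on chaperones, in the cytosol through heat shock factors and in the endoplasmic reticulum through the unfolded protein response, whose sensors are bound and held back by the chaperone Hspa5 (BiP) when there is no stress. DMSO is a polar solvent that crosses membranes and the blood-brain barrier and is widely used to dissolve drugs.

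In total, 141 genes were differentially expressed genes (DEG) at a false discovery rate (FDR) below 0.05, which is 1.11% of the genes tested. Of these, 91 were higher in DMSO-treated hippocampi (0.717% of genes) and 50 were lower (0.394% of genes). The increases held immediate early genes, chaperones and ribosomal protein genes. Both directions held single genes with very large differences, such as Cwc22 (higher) and Psmc3ip (lower). Most differences were modest. The median absolute Log2FC of the DEG was 0.69, and 25 increases and 16 decreases reached an absolute Log2FC of 1. Over all genes tested the median Log2FC was -0.0021. In 140 of the 141 DEG the values of the DMSO and control libraries did not overlap, a count that the choice of DEG by their difference largely fixes. Over all genes tested both DMSO libraries lay above all controls in 15.8% and below all controls in 15.2%. Without a threshold on the FDR, 1897 genes (15% of those tested) had an unadjusted p below 0.05.

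**Figure D1:**
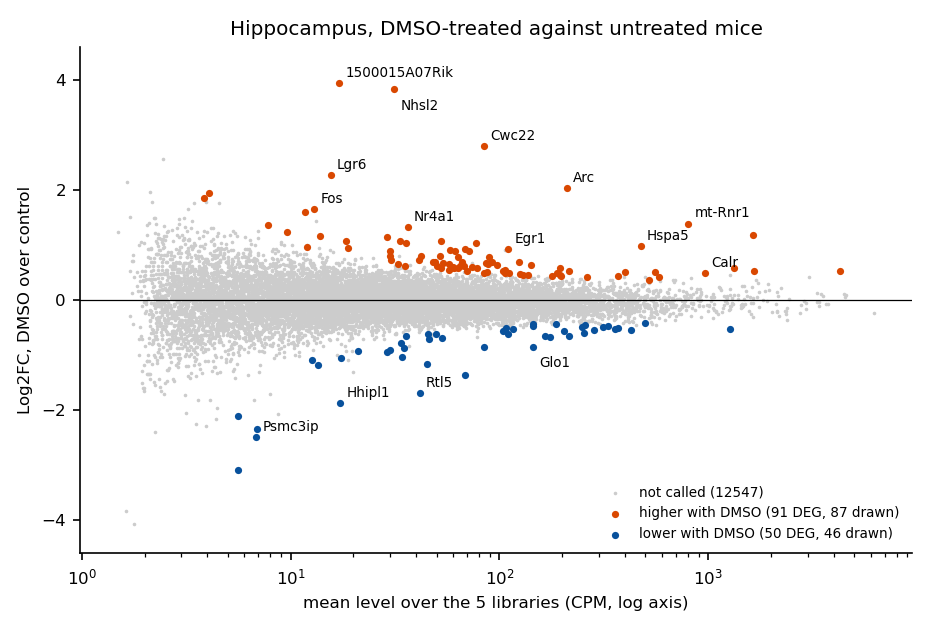
Log2FC of DMSO over control (vertical axis) against the mean level over the 5 libraries in CPM (horizontal log axis) for each gene tested, with the 91 higher DEG in orange and the 50 lower DEG in blue. Arc, Cwc22 and Nhsl2 stand far above the other genes of their level, and the 8 DEG with too few counts in 1 group for a Log2FC are not drawn.

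Whether the different marker levels of the 2 ONX-0914 libraries had a part in the counts below was not tested. The number of DEG depended on the libraries in the fit. It was 75, 55 and 68 without control 1, 2 and 3, 146 without DMSO 2 (66 higher and 80 lower, so that decreases outnumbered increases) and 55 without DMSO 3, with 29 genes called in all 5 of these fits, and it fell to 2 (1500015A07Rik and AC165951.1) when the ONX-0914 libraries shared the estimate of the spread.

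Immediate early genes were higher in DMSO-treated hippocampi as a group. Like the other gene lists, theirs was chosen with earlier results of these data known, so the counts of members are a description. All 20 listed genes were tested, all 20 had a Log2FC above 0 (49.7% of all genes tested did), and 13 were DEG, against 0.717% of all genes. Their median Log2FC was 0.80, and in 15 of them both DMSO libraries lay above all controls, against 15.8% of all genes tested. The summed level of the list was 703 to 802 CPM in the controls and 1575 and 1317 CPM in DMSO 2 and 3.

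Arc, which encodes a cytoskeletal protein of dendritic spines that is made on synaptic activity, had the clearest increase of the list. It stood at 104, 86.7 and 92.9 CPM in control 1, 2 and 3 and at 436 and 336 CPM in DMSO 2 and 3, a Log2FC of 2.04 ± 0.12 (SE) with an FDR of 4.57e-10. The groups were far apart, and the lower DMSO library was more than 3 times the highest control. Fos, the founding member of the AP-1 transcription factors, stood at 7.28, 7.45 and 6.17 CPM in the controls and at 21.4 and 22.6 CPM after DMSO (Log2FC 1.66 ± 0.23, FDR 4.58e-04). Nr4a1, an orphan nuclear receptor, was at 23.2, 20.5 and 24.96 CPM and at 66.6 and 46.6 CPM (Log2FC 1.32 ± 0.17, FDR 1.65e-04). In each of these genes the controls were close to each other and neither DMSO library came near them. Egr1, a zinc finger transcription factor used as a marker of active neurons, rose from 81.1 ± 13.5 CPM (SD, n = 3) to 169 and 138 CPM in the DMSO libraries (Log2FC 0.93 ± 0.13, FDR 5.30e-04). Jun, the partner of Fos in AP-1, was at 70.4, 67.3 and 70.9 CPM in the controls and 116 and 107 CPM after DMSO (Log2FC 0.68 ± 0.11, FDR 0.0024). These 5 genes were called in every fit that left out 1 library.

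The other 8 DEG of the list were called in fewer of those fits, and Egr2 and Egr3 in none of them. Egr2 was nearly silent in the controls, with 2, 2 and 0 counts, and had 20 and 11 counts in the DMSO libraries, a ratio of 11.99 with a 95% counting interval of 4.24 to 46.7. Fosb rose from 12.9 ± 3.50 CPM to 27.2 and 26.1 CPM (FDR 0.0163) and Egr4 from 13.8 ± 1.60 CPM to 28.5 and 24.7 CPM (FDR 0.0197). Junb, Nr4a2, Nr4a3, Egr3 and Homer1 had Log2FC values of 0.80, 0.80, 0.55, 0.51 and 0.69. Homer1, a scaffold of the postsynaptic density, went from 82.5, 67.8 and 73.3 CPM in the controls to 129 and 109 CPM. Among the 7 members that did not pass the test, Npas4 had a Log2FC of 0.98 (FDR 0.315) and Bdnf, the neurotrophin gene, a Log2FC of 0.40 (FDR 0.307). Btg2, Inhba, Bdnf, Fosl2 and Ier2 were the members whose groups overlapped.

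**Figure D2:**
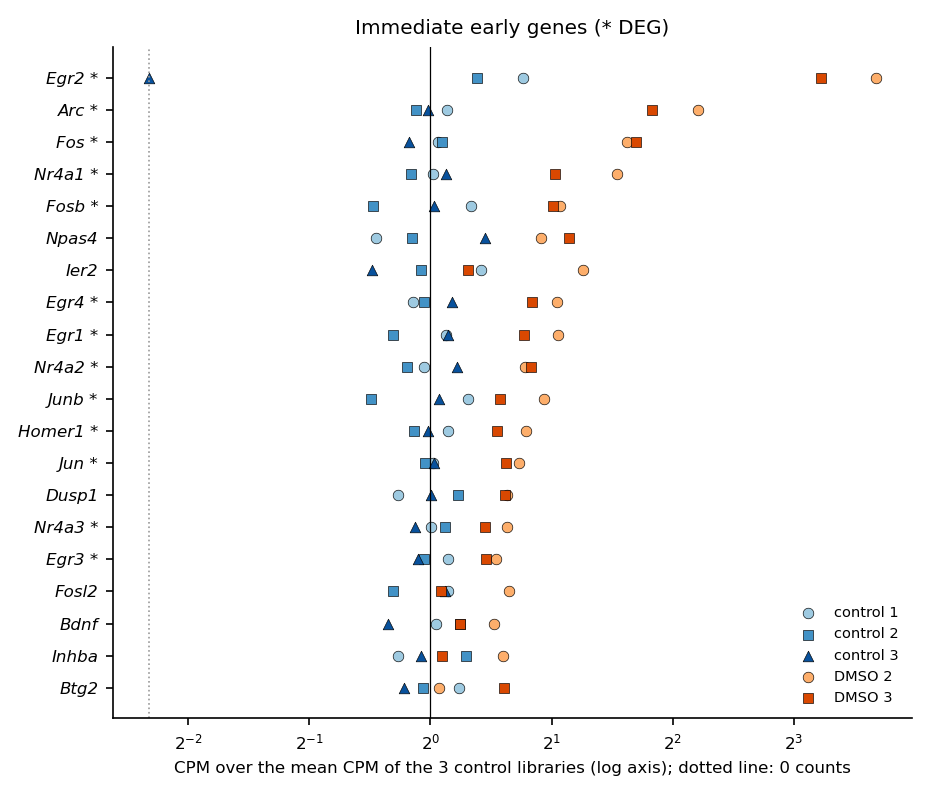
Level of the 20 immediate early genes in each library, as CPM divided by the mean of the 3 controls (horizontal log axis), with controls in blue and DMSO libraries in orange and asterisks on the 13 DEG. Arc, Fos and Nr4a1 show a wide gap between the groups, while Btg2, Inhba and Bdnf overlap.

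Leaving out 1 library left between 5 (without DMSO 2) and 9 DEG in the list and medians of 0.62 to 0.84, and DESeq2 called 7 of the 12 members to which it gave an FDR. It gave none to Fos, Fosb, Egr2 and Egr4, and Junb and Egr3 were not called by it. In the fit with all 7 libraries edgeR called no member, with 9 at an unadjusted p below 0.05 and a median of 0.79. In the ONX-0914 libraries the summed level was 382 and 1001 CPM, and Arc stood at 34.5 and 66.02 CPM. The CA3 markers of these libraries summed to 548 and 878 CPM, against 1820.0 to 1935 CPM in the 5 libraries of the model. Whether the tissue taken differed was not tested.

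Promoters of the immediate early genes were read from RefSeq (GRCm38.p6) as the 250 bases before the transcription start, which were found for 16 of the 20 genes. The letters TGACG, the core of the cyclic AMP response element, on either strand, occurred in 13 of the 16 and in 9 of the 10 DEG among them, in 8 of the 18 promoters found for the heat shock and unfolded protein response genes (4 of the 9 DEG among them), and in 19.8% of all 27025 genes with a promoter in the table. Stretches of 100 bases from 3 of the DEG with a TGACG site are shown with the site (or its complement CGTCA) in capitals, since these letters recur across the list. The Fos stretch lies at chr12:85473745-85473844 (plus strand), that of Nr4a1 at chr15:101266731-101266830 (plus strand) and that of Junb at chr8:84978803-84978902 (minus strand).
Fos: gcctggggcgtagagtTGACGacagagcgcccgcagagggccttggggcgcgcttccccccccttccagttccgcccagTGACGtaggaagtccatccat
Nr4a1: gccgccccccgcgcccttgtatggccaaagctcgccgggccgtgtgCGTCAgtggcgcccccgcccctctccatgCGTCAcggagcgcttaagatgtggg
Junb: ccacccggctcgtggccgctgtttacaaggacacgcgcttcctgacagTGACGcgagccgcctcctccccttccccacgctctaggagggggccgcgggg
In the Fos stretch the sites start 129 and 66 bases before the transcription start, and in that of Junb 106 bases before it. Nr4a1 has 4 sites in its 250 bases, and the 2 shown are on the opposite strand. A match of letters is a description and not a measured binding site.

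Chaperones and folding enzymes were higher as well. Of 25 listed genes of the heat shock and unfolded protein responses 22 were tested, all 22 had a Log2FC above 0 and 11 were DEG, against 0.717% of all genes. The median Log2FC was 0.51, and both DMSO libraries lay above all controls in 20 of the 22 (15.8% of all genes tested). Hspa5, of the endoplasmic reticulum, was at 365, 344 and 318 CPM in control 1, 2 and 3 and at 726 and 621 CPM in DMSO 2 and 3 (Log2FC 0.98 ± 0.10, FDR 4.06e-06). Pdia4, a protein disulfide isomerase of the same compartment, was at 51.6, 43.6 and 34.6 CPM and at 84.6 and 75.5 CPM (Log2FC 0.90 ± 0.15, FDR 0.00189). For both genes the groups were well separated, and both were called in every fit that left out 1 library. Calr (calreticulin, a calcium-binding lectin chaperone) was at 885, 791 and 822 CPM in the controls and at 1170.0 and 1170.0 CPM in the DMSO libraries (Log2FC 0.49 ± 0.09, FDR 0.00509). The isomerases Pdia6 and Pdia3 rose by a Log2FC of 0.52 and 0.46, the secreted factor Manf by 0.63, and Hsp90b1 (Grp94), the Hsp90 of the endoplasmic reticulum, by 0.43. Manf was at 57.2, 52.4 and 51.00 CPM in the controls and at 81.7 and 83.2 CPM after DMSO.

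Chaperones of the cytosol and mitochondria were among the DEG as well. Hspa1b, the inducible Hsp70, was at 7.63, 6.12 and 6.17 CPM in the controls and at 25.3 and 13.6 CPM in the DMSO libraries (Log2FC 1.60 ± 0.28, FDR 0.00467), and it was not a DEG without DMSO 2 (Log2FC 1.04). Its near-identical copy Hspa1a can take the same reads, so the value is uncertain for either gene alone. Dnajb1, the Hsp40 partner of Hsp70, rose from 49.9 ± 8.69 CPM to 97.4 and 71.3 CPM (FDR 0.0144). Hspe1 (Hsp10 of the mitochondrial matrix) was at 68.99, 69.4 and 68.98 CPM in the controls, a very narrow range, and at 105 and 135 CPM after DMSO (Log2FC 0.79 ± 0.12, FDR 0.0013). Its partner Hspd1 (Hsp60) had a Log2FC of 0.21 (FDR 0.31). The most abundant members, Hsp90ab1 and Hsp90aa1, differed little, with Log2FC values of 0.11 (FDR 0.624) and 0.17 (FDR 0.377). The constitutive Hspa8 was at 352, 287 and 332 CPM and at 455 and 422 CPM (Log2FC 0.44, FDR 0.033). The stress regulators Xbp1, Atf4 and Ddit3 had Log2FC values of 0.36, 0.37 and 0.39 and did not pass the test. Outside the list, and named after their values were seen, the small heat shock gene Cryab (Log2FC 0.89, FDR 0.00164), Dnaja4 (0.49) and the Hsp90 cochaperone Chordc1 (0.49) were also higher. Hspa8, Dnaja4 and Chordc1 were called in none of the fits that left out 1 library.

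**Figure D3:**
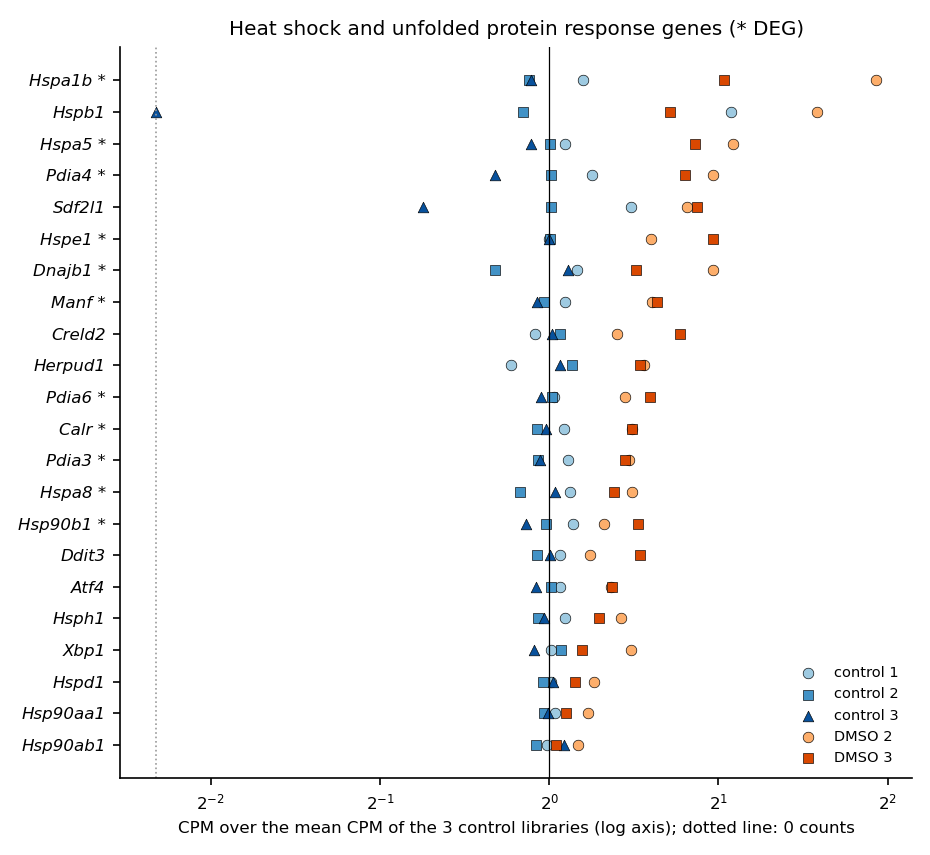
Level of the 22 tested heat shock and unfolded protein response genes in each library, as CPM divided by the mean of the 3 controls (horizontal log axis), with controls in blue and DMSO libraries in orange and asterisks on the 11 DEG. Both DMSO libraries lie above all controls in 20 genes, the exceptions being Hspb1 and Hsp90ab1.

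Leaving out 1 library left 5 (without control 2 or without DMSO 3) to 8 DEG in the list, with medians of 0.49 to 0.53, and a correction for gene length left 12 with a median of 0.43. In the fit with all 7 libraries edgeR called no member, with 9 at an unadjusted p below 0.05 and a median of 0.49.

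Genes induced by glucocorticoids, which are the stress hormones of the adrenal, gave a mixed picture. Of the 14 tested, 9 had a Log2FC above 0 (49.7% of all genes tested), 8 had an unadjusted p below 0.05 (15% of all), 3 were higher DEG (0.717% of all) and 1 was a lower DEG (0.394% of all), and the median Log2FC was 0.36. Sgk1, a kinase that regulates ion channels, was at 40.9, 45.5 and 33.01 CPM in the controls and at 59.5 and 79.7 CPM after DMSO (Log2FC 0.79 ± 0.16, FDR 0.0142). Errfi1, a feedback inhibitor of the EGF receptor, was at 57.9, 52.1 and 49.9 CPM and at 89.04 and 81.8 CPM (FDR 0.00573). Both were separated from the controls. Tsc22d3 (Gilz) had a Log2FC of 0.58 (FDR 0.0283), whereas Zbtb16 was lower, at 167, 169.8 and 246 CPM in the controls and 144 and 104 CPM after DMSO (Log2FC -0.65, FDR 0.0435). Fkbp5, the cochaperone of the glucocorticoid receptor, had a Log2FC of -0.20 (FDR 0.43). None of the 4 DEG was called in every fit that left out 1 library. None of the 17 tested circadian clock genes was a DEG by edgeR with all 5 libraries (4 had an unadjusted p below 0.05) or by DESeq2 among the 9 to which it gave an FDR, and their median Log2FC was -0.052 (-0.14 without control 2 and 0.012 without control 3). Without DMSO 2 edgeR called 1 of them lower.

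Of 20 tested Nrf2 targets and glutathione genes 13 had a Log2FC above 0 (49.7% of all genes tested), 8 had an unadjusted p below 0.05 (15% of all) and 1 was a higher DEG (0.717% of all), with a median of 0.22. Gsta4, a glutathione transferase for lipid aldehydes, rose from 109 ± 11.8 CPM to 148 and 154 CPM (FDR 0.04), a call that was lost without any 1 of the 5 libraries. Gpx4, which reduces lipid peroxides, had a Log2FC of 0.41 (FDR 0.0568). The methionine sulfoxide reductases and flavin monooxygenases, enzymes that act on sulfoxides and other sulfur compounds, held no DEG by edgeR among 6 tested, with 1 at an unadjusted p below 0.05, and none by DESeq2 among the 2 with an FDR. Msra was at 53.4, 49.5 and 62.00 CPM in the controls and at 60.1 and 67.8 CPM after DMSO (Log2FC 0.21, FDR 0.509).

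Most listed ribosomal protein genes had a Log2FC above 0. Of 56 tested cytosolic ribosomal protein genes 54 had a Log2FC above 0 (49.7% of all genes tested), 42 had an unadjusted p below 0.05 (15% of all), and 5 were higher DEG (0.717% of all). The median was 0.33, with both DMSO libraries above all controls in 44 (15.8% of all). Rplp1, a protein of the ribosomal stalk, was at 163, 183 and 142 CPM in the controls and at 237 and 218 CPM after DMSO (Log2FC 0.49 ± 0.11, FDR 0.0329). Rpl23, Rpl14 and Rpl9 were also DEG, with Log2FC values of 0.43, 0.41 and 0.37. The list does not hold every ribosomal protein gene, and outside it, named after their values were seen, Rpl31 (0.68) and Rpl36a (0.60) were higher DEG as well. Rpl31 was called in 2 and Rpl36a in none of the 5 fits that left out 1 library. Processed copies of ribosomal protein genes can take some of their reads. Of the 13 protein genes of mitochondrial DNA 7 were tested, all with a Log2FC above 0 (49.7% of all genes tested). The other 6 (mt-Nd3, mt-Nd4l, mt-Co2, mt-Co3, mt-Atp6 and mt-Atp8) had no count in the 5 libraries. Of the 7 tested, 6 had an unadjusted p below 0.05 (15% of all) and 3 were higher DEG (0.717% of all). The 3 DEG were mt-Co1 (0.54), mt-Cytb (0.53) and mt-Nd4 (0.51). The mitochondrial ribosomal RNAs differed more. The 12S rRNA gene mt-Rnr1 was at 661, 464 and 336 CPM in control 1, 2 and 3 and at 1341 and 1203 CPM in the DMSO libraries (Log2FC 1.39 ± 0.16, FDR 4.48e-05), and the 16S gene mt-Rnr2, named after its values were seen, had a Log2FC of 1.19 (FDR 7.42e-04). Both rRNAs varied widely among the controls, were lowest in control 3 and lay above every control in both DMSO libraries. Robust estimation in edgeR called neither of them, and DESeq2 did not call mt-Rnr2.

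Gene length moved with these differences. The median spliced length was 3189 bases for the higher DEG, 5999 bases for the lower DEG and 4681 bases for the genes tested. Over 5 groups of the protein-coding genes of rising length the median Log2FC ran from 0.10 in the shortest through 0.030, 0.0058 and -0.043 to -0.099 in the longest. After a correction for length 114 DEG were left, 103 of them among the 141. It left 1 DEG among the ribosomal proteins, with a median of 0.25, and no DEG among the mitochondrial protein genes, with a median of 0.27. The ribosomal list held no DEG without control 3 or without DMSO 3, and the mitochondrial list none without control 2 or without control 3. No member of either list was called in all 5 of these fits. In the fit with all 7 libraries edgeR called no member of either list, with 3 of the 56 ribosomal and 0 of the 7 mitochondrial genes at an unadjusted p below 0.05. The cause of the trend with length was not tested.

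Some lower DEG outside the lists are named here after their values were seen, and no list of their kind was tested. Unc13a, which primes synaptic vesicles for release, was at 439.9, 518 and 505 CPM in the controls and at 331 and 338 CPM after DMSO (Log2FC -0.55 ± 0.10, FDR 0.00524). Both DMSO libraries lay below every control. The calcium channel genes Cacna1b and Cacna1e had Log2FC values of -0.56 and -0.48, the calcium exporters Slc8a1 and Atp2b3 -0.60 and -0.55, the scaffold Shank2 -0.51 and the calcium-stimulated adenylyl cyclase Adcy1 -0.52. Adcy1, the most abundant of them, was at 1171, 1626 and 1563 CPM in the controls and at 1120.0 and 904 CPM after DMSO. With the correction for length Unc13a (-0.44) and Atp2b3 (-0.55) stayed DEG. Cacna1b (-0.48), Cacna1e (-0.32), Slc8a1 (-0.47), Shank2 (-0.43) and Adcy1 (-0.42) no longer passed the test, with Log2FC values of like size in all but Cacna1e. None of these 7 genes was called in every fit that left out 1 library, and Unc13a was lost only without control 2. Slc8a1 had a Log2FC of -1.01 without DMSO 2 and -0.30 without DMSO 3, and Atp2b3 of -0.85 and -0.32. Adam22, a synaptic receptor of Lgi proteins, was called in all of them and fell from 256, 244 and 256 CPM to 164 and 155 CPM (Log2FC -0.66 ± 0.10, FDR 9.42e-04). Tfrc, the transferrin receptor for iron uptake, was likewise called in all and was at 109, 95.5 and 102 CPM and at 50.4 and 63.7 CPM (Log2FC -0.85 ± 0.13, FDR 0.00107).

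No subunit of the listed receptors and proteasomes was called by edgeR with all 5 libraries, or by DESeq2 among the 17 glutamate receptor, 9 GABA-A receptor, 29 constitutive proteasome and 2 immunoproteasome genes to which it gave an FDR. Without DMSO 2 edgeR called 1 GABA-A subunit lower and 1 constitutive proteasome subunit higher, and without a filter on low counts 1 glutamate receptor gene lower. Of 24 tested glutamate receptor genes 20 had a Log2FC below 0 and none was a DEG, with 9 at an unadjusted p below 0.05 (15% of all genes tested). Their median was -0.13, and it was -0.28 without DMSO 2 and -0.044 without DMSO 3. Grin2b, an NMDA receptor subunit, was at 654, 645 and 747 CPM in the controls and at 561 and 505 CPM after DMSO (Log2FC -0.35, FDR 0.0803), and the AMPA receptor subunit Gria1 had a Log2FC of -0.25 (FDR 0.2). Gria2 was at 950.2, 891 and 861 CPM in the controls and at 916 and 888 CPM after DMSO. None of the 12 tested GABA-A receptor subunits was a DEG, with a median of -0.064 (-0.15 without DMSO 2 and 0.022 without DMSO 3) and 1 at an unadjusted p below 0.05. None of the 31 constitutive proteasome subunits was a DEG, with 25 above 0, a median of 0.12 and 2 at an unadjusted p below 0.05. The 5 tested immunoproteasome genes, the target class of the inhibitor that DMSO served as vehicle for, held no DEG and 0 genes at an unadjusted p below 0.05, and Psmb8, Psmb9 and Psmb10 had Log2FC values of 0.14, 0.0067 and -0.24.

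Several single genes are named here for the size of their differences. Cwc22, a splicing factor, was at 22.5, 27.4 and 23.6 CPM in control 1, 2 and 3 and at 137 and 209 CPM in DMSO 2 and 3 (Log2FC 2.80 ± 0.16, FDR 4.57e-10). Nhsl2 on chromosome X was at 6.24, 4.52 and 4.56 CPM and at 84.9 and 57.05 CPM (Log2FC 3.83 ± 0.22, FDR 4.57e-10). Rtl5, a gene derived from a retrotransposon, overlaps Nhsl2 on the opposite strand and went the other way, from 53.04, 46.03 and 72.5 CPM to 16.2 and 19.8 CPM (Log2FC -1.68 ± 0.20, FDR 7.76e-05). The strand setting of the counting is not given in the sources used here, so reads of overlapping genes may not be told apart. The antisense gene 1500015A07Rik was at 2.08, 3.19 and 2.15 CPM in the controls and 38.9 and 39.3 CPM after DMSO (Log2FC 3.94 ± 0.25, FDR 1.94e-09), while Afap1l1 on the other strand had a Log2FC of -0.56 (FDR 0.309). Lgr6, a receptor for R-spondins, was at 4.16, 4.79 and 8.59 CPM and at 18.5 and 41.8 CPM (Log2FC 2.28 ± 0.33, FDR 5.74e-04). Psmc3ip, a factor of meiotic recombination, fell from 10.1, 9.58 and 11.00 CPM to 2.09 and 1.39 CPM (Log2FC -2.49 ± 0.40, FDR 0.00172), and Hhipl1 from 27.04, 19.96 and 26.8 CPM to 8.36 and 4.52 CPM (Log2FC -1.87 ± 0.27, FDR 5.42e-04). These 7 genes were called in every fit that left out 1 library.

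Several further large differences rested on few counts. Baiap2l1 had 4 counts over the 3 controls and 66 and 14 in the DMSO libraries, a ratio of 30.9 with a 95% counting interval of 11.6 to 116, and it was not a DEG without DMSO 2. Gm4737 had 3, 0 and 0 counts in control 1, 2 and 3 and 30 and 23 in the DMSO libraries, a ratio of 27.3 (8.86 to 137). Without control 1 its controls held no count, so no ratio can be given there. Ifi203, an interferon-inducible gene of a family of close copies, had 8 counts over the controls against 24 and 11, a ratio of 6.77 (3.08 to 16.9). Among the decreases, D430020J02Rik went from 58 counts over the controls to 3, a ratio of 12.5 (4.07 to 62.4). Serpina3m, 1 of a cluster of like serine protease inhibitor genes, had 27 counts over the controls and none after DMSO and was at least 2.92-fold lower. The counting intervals and the bound cover counting error only, and the bound sets the DMSO libraries at 3 counts each. Other large differences were in genes of few or of more counts. Klf4, Actg-ps1 and Gm5962 were higher with a Log2FC of 1.37, 1.94 and 1.85. The pseudogenes Actg-ps1 and Gm5962 had the same counts in all controls (9, 5 and 5), so they may share reads. Gm7729, Gm1821, Sppl2b, Rcc1l, Nhlrc3, Krt9, Sox1, Lztfl1 and Pdzd2 were lower, with Log2FC values from -2.34 (Gm7729) to -0.90 (Pdzd2), and Gm12912 was higher (1.08). Among all these genes, from Baiap2l1 to Gm12912, Gm4737 alone was called in every fit that left out 1 library. Ifi203, Klf4, Gm5962 and Rcc1l were called in none of these fits, nor was Serpina3m, which passed the filter in 2 of them. Gm7729 had a Log2FC of -1.38 without DMSO 2 and of -4.17 without DMSO 3, and Nhlrc3 one of -0.64 without DMSO 2.

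Neighbouring genes on chromosome 17 were low together after DMSO, of which Glo1 and Dnah8 were chosen after their values were seen. Glo1 (glyoxalase 1, which detoxifies methylglyoxal and has been tied to anxiety-like behaviour in mice) was at 181, 174 and 174 CPM in the controls and at 96.9 and 99.5 CPM in the DMSO libraries (Log2FC -0.84 ± 0.11, FDR 1.44e-04). Glp1r, the receptor of glucagon-like peptide 1, had 55 counts over the controls and 4 after DMSO, a ratio of 8.89 (3.28 to 33.8). It was called in 1 of the fits that left out 1 library and passed the filter in 3 of them, and limma voom did not call it. The antisense gene AC165951.1, which overlaps Glp1r on the other strand, had 210 counts over the controls and none in the DMSO libraries, at least 22.3-fold lower. Dnah8, an axonemal dynein gene between Glo1 and Glp1r, was at 4.51, 7.45 and 5.37 CPM and at 1.57 and 1.74 CPM (FDR 0.0754). The control levels of Glo1 spanned a few percent and every DMSO value lay far below them. In the GENCODE M21 gene order these are the only genes tested from Glo1 to AC165951.1, and each of the other 8 genes of the stretch was at 1.04 CPM or below in every control and DMSO library. Values were low in the ONX-0914 libraries as well, with Glo1 at 90.4 and 53.9 CPM and AC165951.1 at 0 and 0.132 CPM. Cwc22 and 1500015A07Rik likewise lay above all controls in those libraries, at 396 and 170.4 CPM and at 30.4 and 17.1 CPM, and Psmc3ip and Hhipl1 below all controls, at 0.755 and 2.05 CPM and at 15.9 and 9.58 CPM. Nhsl2, Lgr6 and Rtl5, by contrast, each lay within the control range in 1 ONX-0914 library. They stood at 73.49 and 5.287 CPM, 5.285 and 13.08 CPM, and 62.67 and 32.51 CPM in ONX-0914 1 and 2. Genotype was not measured, so inherited differences between these outbred mice and the treatment cannot be told apart.

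**Figure D4:**
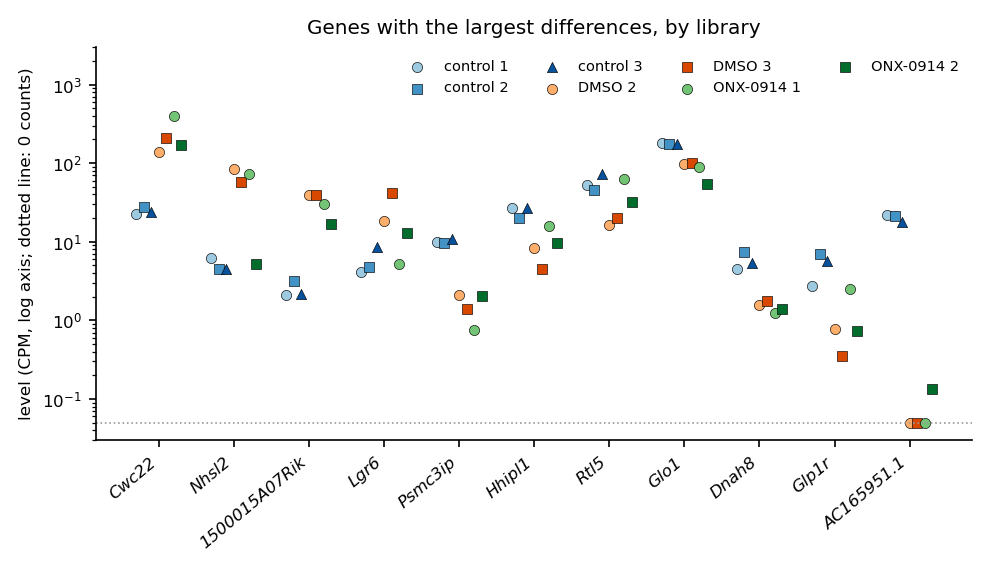
Level in CPM (vertical log axis, with 0 counts on the dotted line) of 11 genes with large differences in each library, controls in blue, DMSO libraries in orange and ONX-0914 libraries, which were not in the fit, in green. Cwc22 and 1500015A07Rik are higher, and Psmc3ip, Hhipl1, Glo1, Dnah8, Glp1r and AC165951.1 lower, in all 4 libraries of injected mice than in all 3 controls. Nhsl2, Lgr6 and Rtl5 each lie within the control range in 1 ONX-0914 library.

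Marker lists of the cell types of the tissue held between 0 and 3 DEG each. Of 16 tested oligodendrocyte and myelin genes 14 had a Log2FC above 0 (49.7% of all genes tested), 5 had an unadjusted p below 0.05 (15% of all) and 3 were higher DEG (0.717% of all), with a median of 0.22. Ermn, a cytoskeletal gene of myelinating cells, was at 85.97, 92.3 and 59.05 CPM in the controls and at 112 and 136 CPM after DMSO (Log2FC 0.64 ± 0.15, FDR 0.0366). Ugt8a, a lipid synthesis gene of the same cells, had a Log2FC of 0.70 (FDR 0.0209). The summed level of the list was 5174, 5203 and 3381 CPM in control 1, 2 and 3 and 5323 and 5952 CPM in DMSO 2 and 3, so control 3 stood below the others. The median of the list was 0.045 with 1 DEG without control 3, 0.34 without control 2 and 0.11 with no DEG without DMSO 3. In bulk tissue more cells of a type and more RNA per cell cannot be told apart.

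None of the 15 microglia markers was a DEG by edgeR with all 5 libraries, 2 had an unadjusted p below 0.05, and 13 had a Log2FC above 0 (49.7% of all genes tested) with a median of 0.29, which was 0.17 without DMSO 3. Without DMSO 2 edgeR called 1 of them higher, and DESeq2 called none of the 5 to which it gave an FDR. The summed level of the list was 412, 403 and 356 CPM in the controls and 423 and 491 CPM in the DMSO libraries, both above all controls. Cx3cr1 was at 85.6, 81.95 and 84.01 CPM in the controls and at 94.01 and 92.2 CPM after DMSO (FDR 0.579). The 13 astrocyte markers, 5 with a Log2FC above 0 and 8 below, had a median of -0.015 (-0.040 to 0.021 without 1 library). None was a DEG by edgeR, with the filter on low counts and all 5 libraries, or by DESeq2. Of the 13, 6 had an unadjusted p below 0.05 (15% of all genes tested). Interferon and MHC class I genes had a median of -0.030 over 17 tested (-0.082 without DMSO 3 and 0.10 without DMSO 2) and no DEG by edgeR, with 1 at an unadjusted p below 0.05, nor by DESeq2, which gave an FDR to 1. Among neuron markers, 1 of 9 CA1 genes (Man1a, -0.61) and 1 of 13 dentate gyrus genes (Pdzd2, -0.90) were lower DEG, against 0.394% of all genes tested, and DESeq2 called none of the 6 CA1 genes with an FDR. No CA3 or interneuron gene was a DEG by edgeR with all 5 libraries or by DESeq2 among the 16 with an FDR. An unadjusted p below 0.05 was found in 1 of 10 CA3 and 6 of 13 interneuron genes (15% of all genes tested). Man1a was called in none of the fits that left out 1 library, and Pdzd2 in 1 of the 5. The interneuron list had a median of -0.15, which was -0.24 without DMSO 2 and ran to -0.12 over the fits that left out 1 library. Some interneuron genes were called lower in at least 1 of those fits. The interneuron genes Gad1 and Gad2, which make GABA, had Log2FC values of -0.21 (FDR 0.357) and -0.46 (FDR 0.0657). The neocortex list held Egr1 as its 1 DEG and had a median of -0.18, which was 0.13 without control 3. Lists for endothelium, choroid plexus, meninges, blood, striatum, thalamus and midbrain, immature neurons and cholesterol synthesis held no DEG by edgeR with that filter and all 5 libraries among 84 genes, 17 of them at an unadjusted p below 0.05, nor by DESeq2 among the 23 with an FDR, with medians of -0.22 (thalamus and midbrain) to 0.24 (immature neurons). The latter was -0.041 without DMSO 3 and 0.44 without DMSO 2, and the former -0.13 without DMSO 3. Leaving out 1 library also moved the medians for striatum (-0.92 to 0.37), blood (-0.18 to 0.43), meninges (-0.24 to 0.24) and choroid plexus (-0.079 to 0.40). Without the filter edgeR called 1 astrocyte marker higher and 1 gene each of the meninges list and the thalamus and midbrain list lower.

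**Figure D5:**
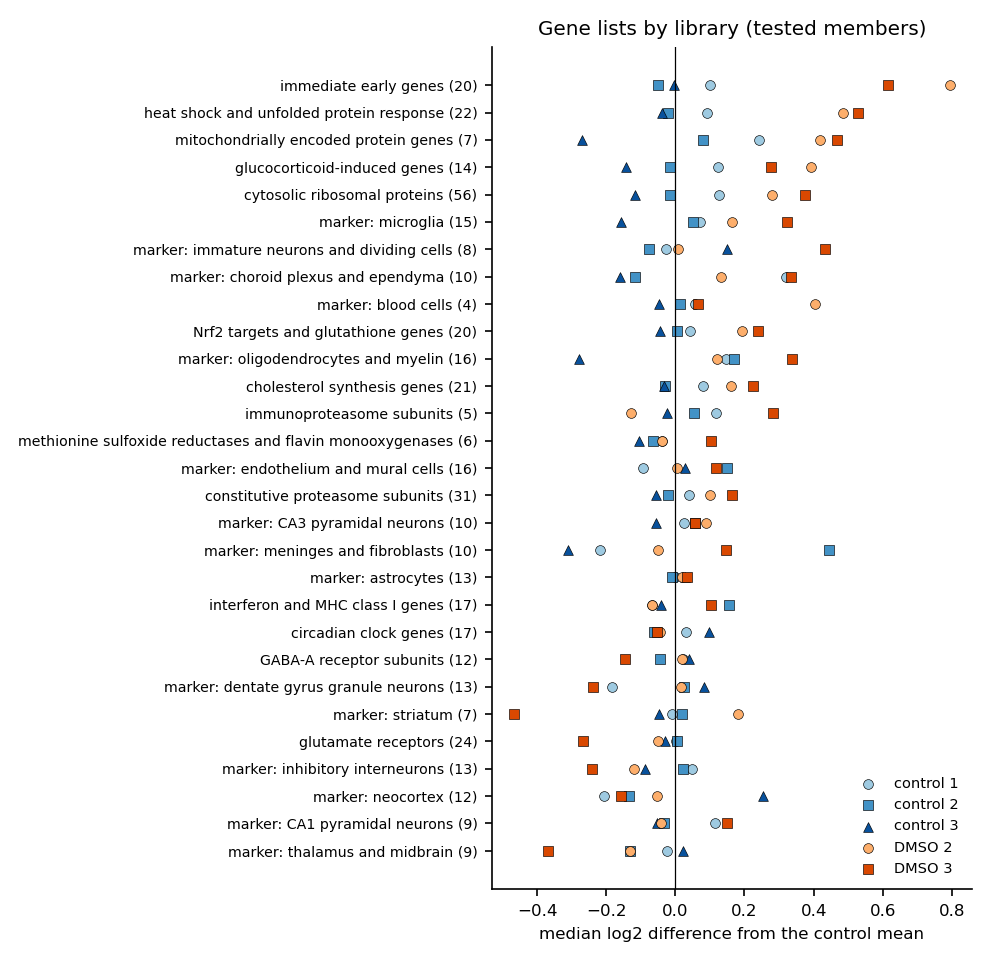
Median over the tested members of each of 29 gene lists of the log2 difference from the control mean (horizontal axis), drawn for each library, with controls in blue and DMSO libraries in orange and the number of tested members in brackets. The immediate early genes and the heat shock and unfolded protein response genes show the widest gaps between the DMSO libraries and the controls, and most marker lists overlap.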

How the data were processed

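RNA-seq counts of mouse hippocampus from control (3 libraries) and DMSO-treated (2 libraries) mice were analysed. The values deposited by the authors are raw counts of reads on each gene, with a file for each library. The submitters' processing notes name Trimmomatic 0.39, STAR 2.7.3a, featureCounts 2.00 and GRCm39, with no role or order. The annotation and the strand setting are not given in the sources used here. Of the reads in these files 90.6% to 91.4% were on genes. The summary lines for the other reads (4.75% to 5.59% on no gene and 3.75% to 3.83% ambiguous) stayed out of library sizes and tests.

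Genes were filtered with filterByExpr, scaled by TMM (factors 0.991 to 1.02) and tested with the quasi-likelihood test of edgeR 4.0.16 in R 4.3.3 with 1 mean per group and Benjamini–Hochberg adjustment over all genes tested at a threshold of 0.05. The test and the adjustment are those of the study's methods, and the filter, scaling and choice of libraries were made here. Log2FC values use a prior count of 0.125 and are given with their standard errors. CPM values use TMM-scaled library sizes, over all 7 libraries for ONX-0914. Totals of 2842675 to 3877006 counts per library limit the precision for low genes. Where all libraries of 1 group had 3 counts or fewer, a ratio with an exact 95% interval or a bound stands in place of the Log2FC. Alternatives were DESeq2 1.42.0, voom of limma 3.58.1, other filters and scalings, a replicate block and each library left out, and corrections for length and GC content chosen after seeing the data. In a simulation of this comparison on 12489 genes, 74.5% of 200 changed genes were recovered, with 12 false calls. The share holds only for the sizes of change set there, and recovery of smaller changes was not tested.

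Gene symbols came from GENCODE M21, which named 52135 of the 55416 identifiers. Genes named in the text are, among DEG whose DMSO libraries both lie on the same side of all controls, the 12 largest increases and 12 largest decreases with a curated symbol and the 4 largest of each among other symbols, the DEG of each gene list and the 3 most abundant members of each list. Others are said to be chosen after their values were seen, or are named as members of a list or as the gene that overlaps a named gene. Some genes that this rule names are not reported here. The comparison and the gene lists were chosen with earlier results of these data known.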

Additional observations from a re-analysis of the deposited data

How the results depend on the processing

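Against 141 DEG (91 higher and 50 lower), all genes without a filter on low counts gave 236 (129 and 107) of 23369, the fit with all 7 libraries 2 (1 and 1), with 349 genes at an unadjusted p below 0.05, and a test against a 2-fold change (glmTreat) 7 (6 and 1). Leaving out 1 library gave 55 (without control 2 or DMSO 3) to 146 (without DMSO 2), with 33 to 66 higher and 15 to 80 lower DEG (both highest without DMSO 2), and without control 1 and control 3 it gave 75 and 68. Fits that leave 1 DMSO library take its spread from the controls. DESeq2, which gave an FDR to 6292 of the 12688 genes, gave 104. Of the 141 DEG it called 89, did not call 23 and gave no FDR to 29. The count was 137 with limma voom, 137 with size factors of DESeq2, 156 with total counts, 131 with at least 10 counts in every library, 141 with robust estimation, 137 with the older quasi-likelihood fit, 137 without mitochondrial genes, and 114 and 138 with corrections for length and GC content. A replicate block on numbers 2 and 3 gave 85 DEG (56 and 29), 74 of them among the 141. Same-numbered libraries had r of -0.112 and -0.124 between their deviations from the group mean, over genes. With 2 DMSO libraries these deviations mirror each other. The 2 values are thus not separate and cannot settle whether the numbers mark pairs. Every DEG tested under these alternatives kept its sign, which the reuse of the same libraries and the choice of DEG by their difference largely fix. Over 533 genes (the DEG, the tested members of the lists and 2 neighbours named with them), 9481 Log2FC values under these alternatives kept their side of the threshold, 846 lost the call and 42 gained one. Only the 141 DEG could lose a call, so all 846 losses were theirs. Most of the 9481 values belonged to genes that were not DEG. The causes were not tested. With 2 DMSO libraries and 2842675 to 3877006 counts each, small differences in genes of few counts could not be shown.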
